A study of Mus musculus with 6 samples.

Results

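Alpha-defensins are small, cysteine-rich antimicrobial peptides. In the mouse small intestine they are made by Paneth cells, the secretory cells at the crypt base, which store them in granules and release them into the crypt lumen. They are synthesised as inactive precursors, which in mice are cut by the matrix metalloproteinase Mmp7, and a Wnt signal acting through TCF factors is known to drive their genes. The genes form a cluster of recent duplicates, so several family members differ at only a few bases. The 10 alpha-defensins described here are the rows of the deposited expression table named Defa2, Defa3, Defa5, Defa17, Defa20, Defa21, Defa22, Defa23, Defa24 and Defa26, out of 7120 genes, and they were chosen by name.

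RNA came from ileal crypts of C57BL/6 mice aged 3 months, cut by laser microdissection from methacarn-fixed, paraffin-embedded sections. Wild-type (WT) mice gave 3 libraries and mice transgenic for Tl1a (Tl1a-tg) gave the other 3, and no other treatment or allele is labelled for either. The labels do not describe the transgene's construct or promoter, and do not state whether libraries of the same genotype are separate mice, so p-values may measure technical spread only. The study concerns TL1A, a TNF superfamily cytokine encoded by Tnfsf15, and what it does to Paneth cells.

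For every gene the deposited table repeats a single fitted mean per genotype, scaled in each column by that library's own factor, so replicate spread is absent from it. The library factors were 0.781 to 1.10 in Tl1a-tg and 0.591 to 1.46 in WT, and the deposited values summed to 314186 to 774249 per library. These sums are not read depths, and depth is unknown. With the factors removed, fitted means are expressed as reads per library at 1 common depth. They carry no SD, so errors below are those of the authors' DESeq2 table. All 9 Paneth cell markers other than alpha-defensins reached a fitted mean of 10 or more in both genotypes, and they summed to 18762 reads in Tl1a-tg and 22734 in WT. Markers of goblet cells summed to 20581 and 20430 reads, and those of stem cells to 1220 and 1261. Markers of other cells had fewer reads, with sums of 218 and 57.6 for enterocytes, 29.1 and 114 for enteroendocrine cells, 24.3 and 262 for tuft cells, 186 and 366 for myeloid cells, 200 and 54.8 for fibroblasts and muscle, and 3.04 and 0.939 for B and plasma cells. The enteroendocrine, tuft, myeloid, and fibroblast and muscle sets each had only 1 gene fitted at 10 or more in both genotypes. Some listed markers had no row. Those analysed were 1 of 4 for B and plasma cells (Cd22), 1 of 5 for T cells, 3 of 6 for enterocytes and 4 of 7 for goblet cells. A low sum therefore does not measure how few such cells there were. Kit alone gave 175 and 363 of the myeloid sums, while Lyz2 and Csf1r were fitted below 1 in both genotypes. The T cell gene Cd8b1 was fitted near 0 in Tl1a-tg and at 128 in WT. Of the 37 marker genes analysed, 24 had an adjusted p-value in the authors' deposited table and 0 of these were called. The others, Cd8b1 among them, could not be called. Of the 26 with an unadjusted p-value, 2 had a DESeq2 p below 0.05, beside 14.6% of all 2580 genes with such a value. These were Agr2 of goblet cells (186 in Tl1a-tg and 0.176 in WT) and Lgr5 of stem cells (131 and 0.342). Both were fitted below 1 read in WT and were picked with their values known. The part of the marker genes in the values of the alpha-defensins was not tested. Tnfsf15 was fitted near 0 in both genotypes and so did not check the genotype labels.

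All 10 members lie on mouse chromosome 8 in the RefSeq annotation (GRCm38.p6), in the order Defa21, Defa23, Defa22, Defa3, Defa5, Defa2, Defa20, Defa26, Defa17 and Defa24. The sources used here name no genome build for the deposited values, so the annotation served only for names, order and sequence. RefSeq promoter sequences were at hand for 5 of the 10. The 250 bases before the start of transcription are shown because they make visible how closely the copies match. The promoter of Defa2 (chr8:21378267-21378516, plus strand) was 100% identical to that of Defa20 (chr8:21509008-21509257, plus strand). The promoter of Defa21 (chr8:21025295-21025544, plus strand) was 100% identical to that of Defa22 (chr8:21162027-21162276, plus strand), and 98% identical to that of Defa2. The promoter of Defa23 (chr8:21054790-21055039, plus strand) was 79.6% identical to each of the other 4. Capitals mark the letters TATAAA, the core of a TATA box, and TCAAAG, the reverse complement of the TCF core letters CTTTGA.
Defa2 and Defa20: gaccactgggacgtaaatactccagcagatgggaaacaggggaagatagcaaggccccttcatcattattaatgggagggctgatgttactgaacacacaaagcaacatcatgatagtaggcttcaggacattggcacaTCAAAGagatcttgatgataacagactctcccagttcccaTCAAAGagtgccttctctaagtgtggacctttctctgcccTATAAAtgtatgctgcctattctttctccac
Defa21 and Defa22: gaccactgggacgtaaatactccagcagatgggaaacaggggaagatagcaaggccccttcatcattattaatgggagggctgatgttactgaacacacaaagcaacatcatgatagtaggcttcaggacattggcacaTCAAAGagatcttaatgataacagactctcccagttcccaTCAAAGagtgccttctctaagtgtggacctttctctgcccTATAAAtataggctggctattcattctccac
Defa23: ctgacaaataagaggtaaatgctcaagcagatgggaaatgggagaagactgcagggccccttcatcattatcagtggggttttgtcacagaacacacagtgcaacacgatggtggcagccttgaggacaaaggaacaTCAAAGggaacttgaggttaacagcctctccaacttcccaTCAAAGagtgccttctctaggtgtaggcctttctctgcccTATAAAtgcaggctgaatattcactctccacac

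Each of these 5 promoters held TATAAA on the gene's strand, with its first base 31 bases before the start, or 33 in Defa23. Each also held CTTTGA on the opposite strand at 2 places, which begin 111 and 71 bases before the start, or 113 and 73 in Defa23. Both motifs were searched on both strands from 250 bases before to 50 after the start, and they do not overlap each other. Of 32851 promoters of the same length, 13.6% held TATAAA and 16.0% held CTTTGA. The 5 promoters are copies of one another, so they do not count as separate cases, and a match of letters is a description, not a binding site.

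Transcripts were also alike. Over the 45 pairs of members, identity between GENCODE M21 transcripts had a median of 84.0% and ran from 79.7% to 99.8%. The closest pairs were Defa2 with Defa20 (99.8%), Defa3 with Defa17 (99.7%) and Defa21 with Defa22 (99.5%). Defa2 and Defa20 are next to each other in the order of members, whereas other members lie between the genes of the remaining pairs. Every stretch of 50 bases in the Defa2 and Defa20 transcripts also occurred in another gene's transcript, so the share found nowhere else was 0% for each. That share was 0.306% for Defa5, 5.25% for Defa23, 7.76% for Defa3, 8.05% for Defa17, 25.1% for Defa22 and 27.1% for Defa21. Defa26 (59.8%) and Defa24 (71.9%) had the most sequence of their own. With stretches of 75 bases the shares were still 0% for Defa2 and Defa20, and 93.3% for Defa24. The rows were matched to these transcripts by current symbol. RefSeq lists Defa3 as a synonym of Defa17 also, Defa20 of Defa32 and Defa23 of Defa31. Those genes had rows of their own as well, under the names Defa17, Gm15308 and Defa-rs7. The authors' annotation is not named, so the match of these rows by symbol was not checked. Reads from such copies can be divided between them by the counting step, so values of single members other than Defa24 and Defa26 are uncertain.

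**Figure D1:**
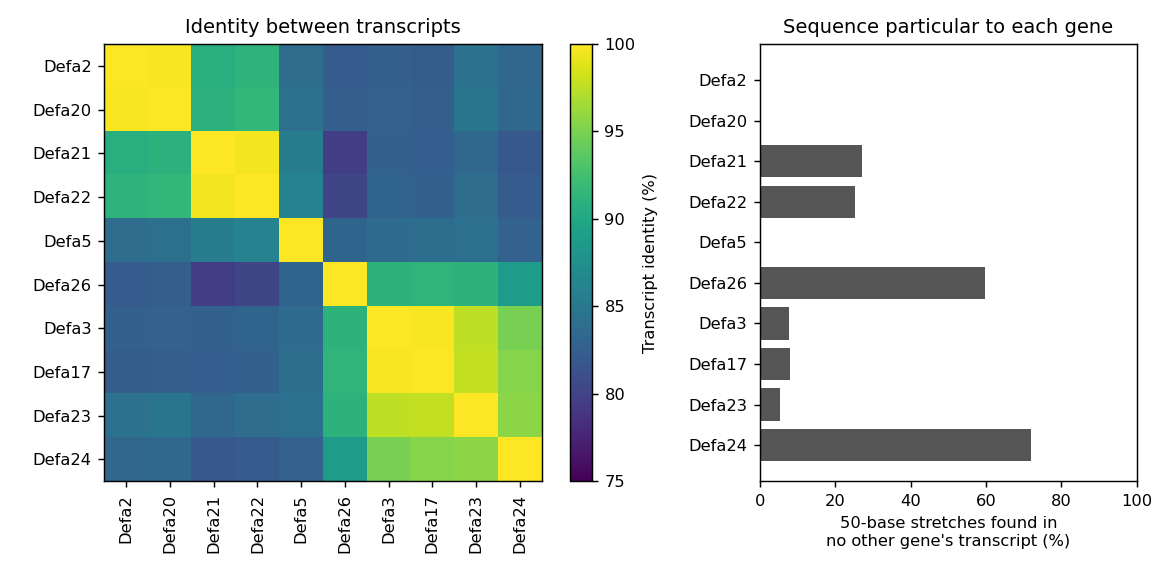
Left, identity in percent between the GENCODE M21 transcripts of each pair of alpha-defensins (colour scale from 75 to 100). Right, percent of each transcript's 50-base stretches found in no other gene's transcript, from 0 for Defa2 and Defa20 to 71.9 for Defa24.

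The summed fitted mean of the family was nearly the same in the 2 genotypes. The fitted means of the 10 members summed to 47251 reads per library in Tl1a-tg and 47314 in WT, a log2 ratio of -0.0019. This was 9.81% of the fitted total of all genes in Tl1a-tg and 8.90% in WT. With library factors left in, the deposited columns of the family summed to 47724, 52071 and 36900 in Tl1a-tg replicates 1 to 3 and to 63183, 27975 and 68939 in WT replicates 1 to 3. The WT columns thus enclose the Tl1a-tg ones, but these differences are those of the library factors, which multiply every gene alike. No error of the sum can be given, because its terms have no values per library and share reads. In bulk samples like these, fewer Paneth cells and less RNA per cell cannot be told apart. On other scalings the log2 ratio of the family lay between -0.23 and 0.38. The higher end was reached when the median log2 fold change of the 1379 measured genes (those fitted at 10 or more reads in each genotype), -0.38, served as the zero point.

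Defa24 led the family in both genotypes. Its deposited values were 11902, 12986 and 9202 in Tl1a-tg and 15895, 7038 and 17343 in WT, and its fitted means were 11784 and 11903 reads per library. The genotypes overlapped, which again follows from the library factors and says nothing of Defa24 itself. For Defa24 the log2 fold change in the authors' deposited table was -0.01 (95% interval -3.94 to 3.91). Its standard error was the 12th lowest among the 1379 genes measured in both genotypes. As a share of the family per base of transcript, Defa24 held 24.6% in Tl1a-tg and 24.8% in WT.

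Below Defa24 the order shifted between the genotypes. Per base of transcript, Defa17 (18.2%), Defa23 (14.8%), Defa2 (14.5%) and Defa20 (13.4%) followed in Tl1a-tg, whereas in WT the order was Defa2 (18.7%), Defa17 (15.3%), Defa23 (14.2%) and Defa20 (8.97%). Defa22 was sixth in both, at 4.30% and 5.50%. Defa3 (3.07% in Tl1a-tg, 5.42% in WT), Defa21 (3.04% and 2.19%) and Defa5 (2.99% and 3.91%) came next, with Defa21 eighth in Tl1a-tg and ninth in WT. Defa26 was last in both, at 1.13% and 0.877%. The levels have no error of their own in the files, so which neighbours in these orders differ beyond their spread is unknown. By reads without the length correction, 5 of the 10 members held another rank in Tl1a-tg than in WT, by at most 2 places.

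**Figure D2:**
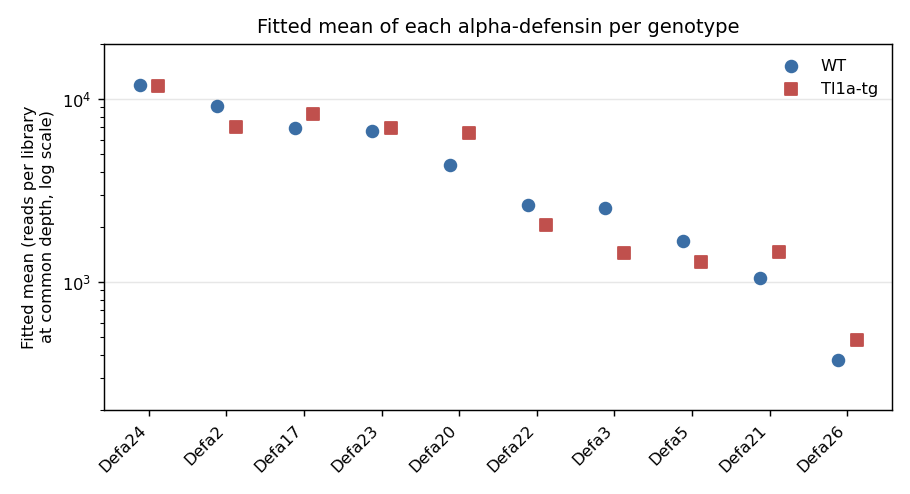
Fitted mean of each alpha-defensin, as depth-adjusted reads per library (log axis), with circles for WT and squares for Tl1a-tg, each 1 value fitted over 3 libraries and without error bars. Defa24 lies at 11784 and 11903, while Defa2, Defa22, Defa3 and Defa5 lie higher in WT and Defa17, Defa20, Defa21 and Defa26 higher in Tl1a-tg.

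Among the most abundant members Defa2 and Defa20 were the most unequal between genotypes, in opposite directions. Defa2 had deposited values of 7127, 7777 and 5511 in Tl1a-tg and 12196, 5400 and 13307 in WT, with fitted means of 7057 and 9132. By the authors' deposited table, Defa2 had a log2 fold change of -0.37 ± 2.60 (SE; p = 0.886 by DESeq2). Defa20 had deposited values of 6556, 7153 and 5069 in Tl1a-tg and 5824, 2579 and 6354 in WT, with fitted means of 6491 and 4361. For both genes the deposited values of the genotypes overlapped, which is set by the library factors common to all genes. By the authors' deposited table, Defa20 had a log2 fold change of 0.57 ± 2.34 (SE; p = 0.807 by DESeq2), the highest fold change and the smallest p-value of the family.

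The lowest log2 fold change was that of Defa3. Its deposited values were 1455, 1588 and 1125 in Tl1a-tg and 3392, 1502 and 3701 in WT, and its fitted means were 1441 and 2540. In the authors' deposited table Defa3 stands at a log2 fold change of -0.82 ± 4.25 (SE). The dispersion behind that error, solved from the fitted means, lay at the ceiling of 13, as for 562 of the 1379 measured genes (40.8%). That error is thus set by the ceiling, and the spread itself is unknown and could be larger. The other 9 members had dispersions of 2.89 to 4.87, and standard errors below the 3.93 that was the median of measured genes.

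The remaining 6 members had log2 fold changes between those of Defa3 and Defa20. By the authors' deposited table, log2 fold changes were 0.25 for Defa17 (8263 fitted reads in Tl1a-tg, 6962 in WT), 0.06 for Defa23 (6942 and 6674), 0.47 for Defa21 (1453 and 1048) and 0.36 for Defa26 (479 and 373). They were -0.36 for Defa22 (2057 and 2637) and -0.39 for Defa5 (1285 and 1683). Thus 5 log2 fold changes were above 0 and 5 below it, and their median was 0.02. Among the 1379 measured genes 37.1% had a positive value and the median was -0.38, with quartiles of -1.33 and 0.40.

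All 10 members were among the measured genes, and none passed the test. The authors' DESeq2 test called 3.67% of the 1662 genes with an adjusted p-value at 0.05, and 0 of the 10 members, all with an adjusted p of 0.999. At an unadjusted p below 0.05 it called 14.6% of 2580 genes and again 0 members. Of the 828 measured genes with a deposited p-value, 0 had such an unadjusted p. The 95% intervals of all 10 members held 0, and their half-widths ran from 15.2-fold for Defa24 to 321-fold for Defa3. Differences of several-fold in single members were therefore not detectable. Since DESeq2 caps dispersion at 10 for models of up to 10 libraries, a ceiling of 13 points to a model with more than the 6 libraries here. The quoted standard errors and p-values would then rest on dispersions fitted over libraries that are not described, and not on 3 against 3 alone.

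**Figure D3:**
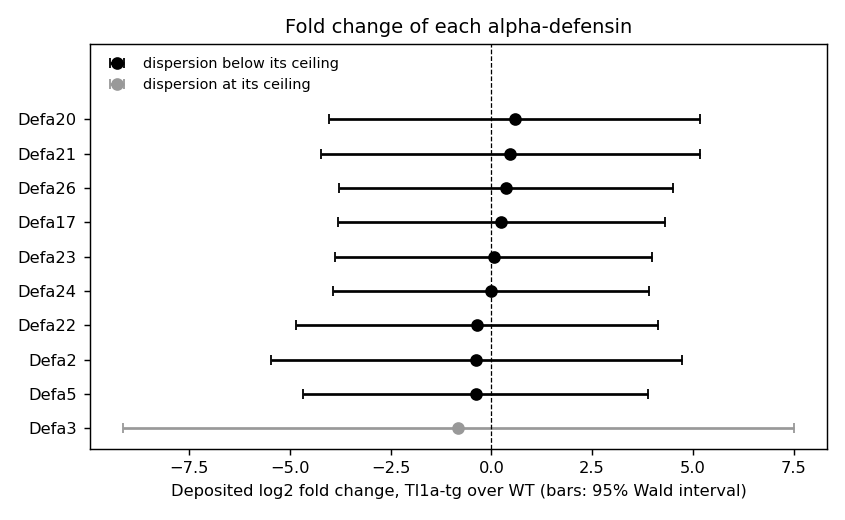
Log2 fold change of each alpha-defensin in the authors' deposited table, Tl1a-tg over WT, with 95% Wald intervals. Points run from -0.82 for Defa3 to 0.57 for Defa20, every interval holds 0, and the grey interval of Defa3 rests on a dispersion at its ceiling.

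In each of the 3 pairs with transcripts at least 99% identical, the log2 fold change was above 0 for one gene and below 0 for the other, and their sum was nearly equal in the 2 genotypes. Defa2 and Defa20 together had 13548 reads in Tl1a-tg and 13494 in WT, a log2 ratio of 0.0058, while the log2 fold changes of the 2 genes lay 0.95 apart. Within that pair Defa2 took 52.1% of the reads in Tl1a-tg and 67.7% in WT. Defa3 and Defa17 together had 9703 and 9502, a log2 ratio of 0.03, with log2 fold changes 1.07 apart, and Defa3 took 14.8% of the pair in Tl1a-tg and 26.7% in WT. Defa21 and Defa22 together had 3510 and 3686, a log2 ratio of -0.07, with log2 fold changes 0.83 apart, and Defa21 took 41.4% in Tl1a-tg and 28.4% in WT. The 99% limit was chosen after the values were seen, and no test of these differences could be made. Of the members without such a partner among the 10, Defa24 (-0.01) and Defa23 (0.06) had log2 fold changes near 0, and Defa5 (-0.39) and Defa26 (0.36) did not. The part of read assignment between copies in these differences was not tested.

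**Figure D4:**
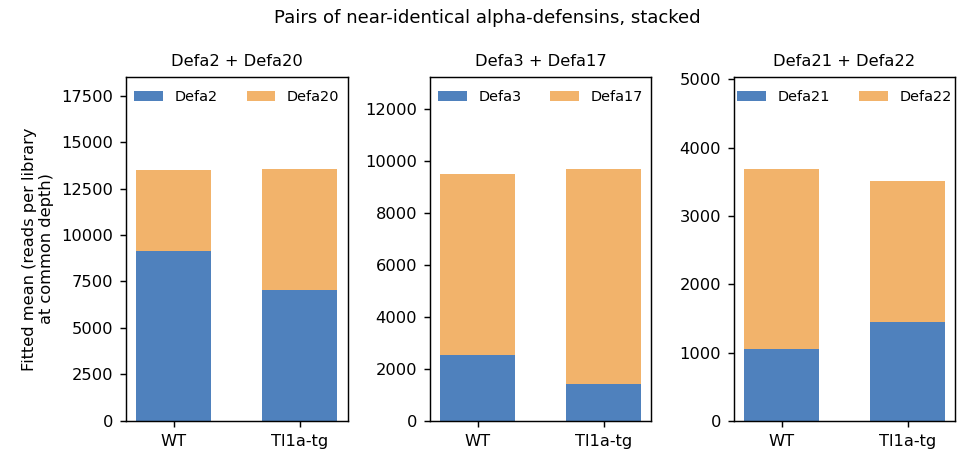
Fitted means in reads per library of the 3 pairs of alpha-defensins with transcripts at least 99% identical, stacked within each genotype on linear axes that start at 0. The stacks are of nearly equal height in WT and Tl1a-tg (13494 and 13548 for Defa2 with Defa20), while the border between the 2 genes moves.

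The table held 4 further rows with an alpha-defensin name, all with fewer reads than any of the 10 members. The pseudogene Defa-ps1 was fitted at 124 in Tl1a-tg and 184 in WT, and Defa6 had 52.9 and 68.0. Defa25 had 25.3 in WT and 0.193 in Tl1a-tg, the value fitted to 1939 genes there, which was read as no reads. Defa-rs7, a synonym of Defa31 in RefSeq with a transcript 100% identical to that of Defa23 over 377 aligned bases, had 2.49 and 0.342. Another 10 rows carried Gm names that RefSeq gives as synonyms of alpha-defensins, and summed to 13968 reads in Tl1a-tg and 14455 in WT. The 10 members thus held 77.0% of all reads on alpha-defensin rows in Tl1a-tg and 76.3% in WT. Gm15308 (Defa32) and Gm21002 (Defa33) had transcripts at least 99% identical to those of Defa2 and Defa20. Gm15308 had 886 and 2028 reads, and Gm21002 had 263 and 1.56. The 4 genes together had 14697 reads in Tl1a-tg and 15523 in WT, a log2 ratio of -0.08. A sum over copies was not nearly equal in every case. Gm14850 (Defa37) and Gm21498 (Defa36), with transcripts 100% identical, together had 2712 reads in Tl1a-tg and 1525 in WT, a log2 ratio of 0.83.

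The mean that the authors' deposited table gives each gene is on another scale and covers the libraries of their model, so only its ratio between genes can be read. It was 0.144 times the mean of the 2 fitted means for Defa3 and 0.316 times for Defa20, with a median of 0.206 over the members. The measured genes had a median of 0.196 with quartiles of 0.148 and 0.291. In that mean Defa2 took 44.9% of the pair with Defa20, less than in either genotype here. For Defa-rs7 the authors' mean, 64.5, exceeded both fitted means.

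Genes that act on alpha-defensins, or are made beside them, did not pass after adjustment where the authors gave an adjusted p-value. Of 7 genes listed for precursor processing, 3 were analysed, and 0 had an adjusted or unadjusted DESeq2 p below 0.05. Mmp7, which cuts the precursors, was fitted at 437 in Tl1a-tg and 693 in WT, the kallikrein Klk1 had 281 and 298, and the proprotein convertase Furin had 91.6 and 34.7. Of 22 genes listed as other Paneth cell products, with Agr2 of the goblet cell markers among them, 17 were analysed, and 14 counted as measured. Their log2 fold changes were above 0 for 6 and below 0 for 8, with a median of -0.09. Of 16 with an adjusted p-value 0 were called, and 1, Agr2, had an unadjusted DESeq2 p below 0.05. They were led by the angiogenin Ang4 (6603 and 8481), the lysozyme Lyz1 (5207 and 5829), the lipase-related Pnliprp2 (4596 and 4377) and the lectin Itln1 (3983 and 5420). Their sum was 26573 in Tl1a-tg and 30014 in WT, and relative to it the family had a log2 ratio of 0.17.

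Genes of the Wnt and TCF pathway, targets of that pathway included, were thinly measured. Of 18 listed, 16 were analysed and 7 counted as measured. Their log2 fold changes were above 0 for 1 and below 0 for 6, with a median of -0.28. Of 8 with an adjusted p-value 0 were called, and 2, Ctnnb1 and Gsk3b, had an unadjusted DESeq2 p below 0.05. The most abundant were the transcription factor Sox9 (432 in Tl1a-tg and 524 in WT), the ephrin receptor Ephb3 (145 and 299), which helps to place Paneth cells at the crypt base, the Wnt target Axin2 (212 and 202) and Ephb2 (113 and 256). Tcf7l2, the TCF factor of the intestinal epithelium, had 168 and 170, and was picked with its values known. Of 19 genes listed for the Paneth and secretory lineage, not all of them transcription factors, 15 were analysed and 10 counted as measured. Their log2 fold changes were above 0 for 5 and below 0 for 5, with a median of -0.11. Of 11 with an adjusted p-value 0 were called, and 1, Cdx1, had an unadjusted DESeq2 p below 0.05. By reads, apart from Sox9, they were led by Habp2 (101 and 344), Bhlha15 (140 and 305), a factor of secretory cell maturation, and Nupr1 (237 and 33.5). Habp2 and Nupr1 were also among the Paneth cell markers, and Habp2 is not a transcription factor. Of 20 genes of granule secretion and Paneth cell disease 10 were analysed, of which 2 counted as measured, both with log2 fold changes above 0. Of 3 with an adjusted p-value 0 were called, and 1, Ern2, had an unadjusted DESeq2 p below 0.05. The most abundant were the secretory granule protein Rab3d (220 and 118), the stress sensor Ern2 (282 and 0.774), the chaperone Hspa5 (135 and 46.5) and Atg7 of autophagy, which was fitted near 0 in Tl1a-tg and at 125 in WT. Of 11 genes listed for TL1A signalling, receptor chains of other cytokines included, 7 were analysed and 0 counted as measured. None had an adjusted p-value, so none could be called, and 1, Il13ra1, had an unadjusted DESeq2 p below 0.05. They were led by Il22ra1 (1.15 and 110), Il13ra1 (71.7 and 0.176) and Il4ra (56.3 and 6.66), which are receptor chains of cytokines other than TL1A. The adaptor Tradd followed (47.9 in WT, and without reads in Tl1a-tg). All 6 genes of these lists with an unadjusted p below 0.05 were fitted below 1 read in 1 genotype: besides Il13ra1, fitted means were 186 and 0.176 for Agr2, 240 and 0.342 for Ctnnb1, 0.193 and 52.6 for Gsk3b, 64.7 and 0.176 for Cdx1, and 282 and 0.774 for Ern2 (Tl1a-tg before WT). Among all 2580 genes with a p-value, 14.6% were below the same threshold.

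Among 32 genes outside the family with at least as many fitted reads as Defa26 in each genotype, the 3 whose log2 fold change lay nearest to the ratio of the family sum were the stem cell gene Olfm4 (677 and 679), the mitochondrial leucyl-tRNA synthetase Lars2 (3463 and 3415) and Pnliprp2. They lay 0.0034, 0.02 and 0.07 away on the log2 scale. This likeness rests on 1 ratio of 2 fitted means.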

How the data were processed

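RNA from laser-microdissected ileal crypts was sequenced with the Kapa stranded mRNA-seq kit, per the labels' protocols, in 3 WT and 3 Tl1a-tg libraries grouped by title. The authors' tools, per the submitters' processing notes, included DESeq2, RSEM 1.2.15 and Bowtie2 2.1.0 beside FastQC and Trimmomatic, in roles that are not stated. Genome build, annotation and read length were not given in the sources used here. The authors deposited a table of signal per gene and library, called normalized counts by its sheet name. Within a genotype its columns were proportional over all genes (relative range 1.82e-14), and between genotypes their log2 ratio was offset from the authors' log2 fold change by -0.13 for every gene. The planned fallback of a test on these columns could therefore not be made. The authors also deposited, per the file headers, log2 fold changes with standard errors, Wald scores, p-values and adjusted p-values from DESeq2, and log2 fold changes shrunken by apeglm. These are quoted as deposited.

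Library factors were scaled to a geometric mean of 1 over the 6 libraries. Dispersions were solved from the standard errors and fitted means. These steps were tested on simulated data. Genes fitted at 10 or more reads in each genotype were called measured. Intervals are 95% Wald intervals. Transcripts were aligned globally with free end gaps (Biopython 1.88), and stretches were compared with every GENCODE M21 transcript. No amino acid sequences were used, so transcript identity and length replaced the planned protein measures. Members, lists and tests were chosen with earlier results of these data known. Named are the 10 members, the other rows named Defa, all genes analysed for precursor processing, the 4 most abundant of each other list except the marker lists, and the 3 genes with the nearest log2 fold change.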

Additional observations from a re-analysis of the deposited data

How the results depend on the processing

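The log2 ratio of the family sum, -0.0019, was -0.23 as a plain ratio of mean deposited signal, 0.14 per fitted total of all genes, 0.092 per fitted total without Rn45s, 0.38 with the median log2 fold change of measured genes set to 0, and 0.17 relative to the other Paneth cell products. It was 0.0023 without Defa24, and 0.021 as the median of the members' log2 fold changes. Among alternatives chosen after seeing the data it was -0.015 with all alpha-defensin rows and 0.033 without Defa3. All rows named Defa and a pseudocount of 1 read left it at -0.0048 and -0.0019. Leaving out each library in turn gave -0.0019 to -0.0019 by construction, since each column holds the same fitted means, and so says nothing on stability. With that median set to 0, 8 of the 10 members had a positive log2 fold change, 3 of them after a change of sign. Shrinking changed the sign of 1 member, Defa24. All 10 members moved by less than their standard error under both, which says nothing on stability. Setting that median to 0 moves every member by the same amount. Each member's standard error exceeded that amount and the size of its own log2 fold change, so this outcome was nearly fixed beforehand. The count of called members was 0 with the authors' adjusted DESeq2 p, with unadjusted p, and with p adjusted again over measured genes or over every gene with a p. As the smallest unadjusted DESeq2 p of a member was 0.807, none of these settings could have called a member. Shares per base of transcript, also chosen after seeing the data, moved by at most 0.727 percentage points from shares of reads. No paired analysis was possible because the deposited columns hold no spread between libraries, and the planned protein identity and protein length were not run. Unknown depth and intervals of 15.2-fold or more limit what single members can show.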
